A study of Mus musculus with 8 samples.

Results

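The 9 genes described here, Trem2, Tyrobp, Lpl, Cst7, Itgax, Spp1, Gpnmb, Clec7a and Cd9, are commonly used to recognize disease-associated microglia. They were chosen by symbol from the 54752 genes of the count tables, without regard to any threshold, and all 9 were among the 17136 genes with enough counts to be tested. Bulk RNA-seq was done on the right cerebral cortex, from 8 wild-type male C57BL/6 mice (C57BL/6J by the study's methods) at 14 weeks of age, 3 weeks after surgery, with 1 library per mouse. In the 4 mice with bilateral carotid artery stenosis (BCAS), a wire coil of narrower bore was wound around the right common carotid artery and a wider coil around the left, which lowers the blood flow to the forebrain without closing the vessels. The 4 sham mice went through the same operation without coils. The question that the comparison of BCAS with sham mice addresses is how the cortical transcriptome differs under chronic hypoperfusion on the side of the tighter stenosis.

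Microglia are the resident macrophages of the brain. Next to amyloid plaques, damaged myelin and dying neurons they switch on a shared set of genes for lipid handling, lysosomal degradation and adhesion. Full entry into this disease-associated state is known to require the surface receptor TREM2, which binds lipids and lipoproteins and signals through the adaptor TYROBP (DAP12), whose tyrosine motif recruits the kinase SYK. Cortex was sequenced whole, so these genes were read against RNA of all other cells, and more cells of a type cannot be told apart from more RNA of a gene per cell.

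The libraries held between 16759364 and 21794435 counts. A count of 0 allows up to 3 counts, which is 0.179 CPM (counts scaled to library size) in the smallest library, and covers counting error only. Levels below are CPM scaled by the trimmed mean of M-values (TMM), each with its SD over 4 mice. A gene is said to have risen or fallen when edgeR's quasi-likelihood test gave an adjusted p under 0.05, over all tested genes, together with an absolute log2 fold change above 1. By this rule 1877 genes (11.0% of those tested) rose and 220 (1.28%) fell in the BCAS mice, so a share of 11.0% is what any list of genes would be read against. Markers of cortical neurons were abundant in all libraries, with the summed level of 10 neuronal genes between 9602 and 11239 CPM in sham mice and between 3879 and 8151 CPM in BCAS mice. BCAS mouse 1 and mouse 2 stood at opposite ends of the BCAS group: among the genes that rose, mouse 1 was the highest of the 4 BCAS mice in 89.8% and mouse 2 the lowest in 93.8%.

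All 9 genes rose after BCAS, against the background of 11.0%. Cst7, Itgax and Clec7a had enough counts for the test through the BCAS libraries alone, so that their calls and ranks are partly set by the filter. The other 6 had enough in both groups. Over all 9 the median log2 fold change was 4.91, with a range from 2.94 for Cd9 to 10.42 for Cst7, while the median over all tested genes was -0.01. For each of the 9, the lowest BCAS mouse was above the highest sham mouse, which held for 18.5% of all tested genes. All 9 also passed with a null of a log2 fold change of 1 in place of 0 in every gene. By that test 744 of the 17136 tested genes passed, in either direction. With the adjusted p alone all 9 passed as well, and by it 19.2% of tested genes were higher. All 9 remained called when BCAS mice 1 and 2 were both left out, a comparison chosen after the data were seen. In that fit 2350 genes were called in either direction.

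**Figure D1:**
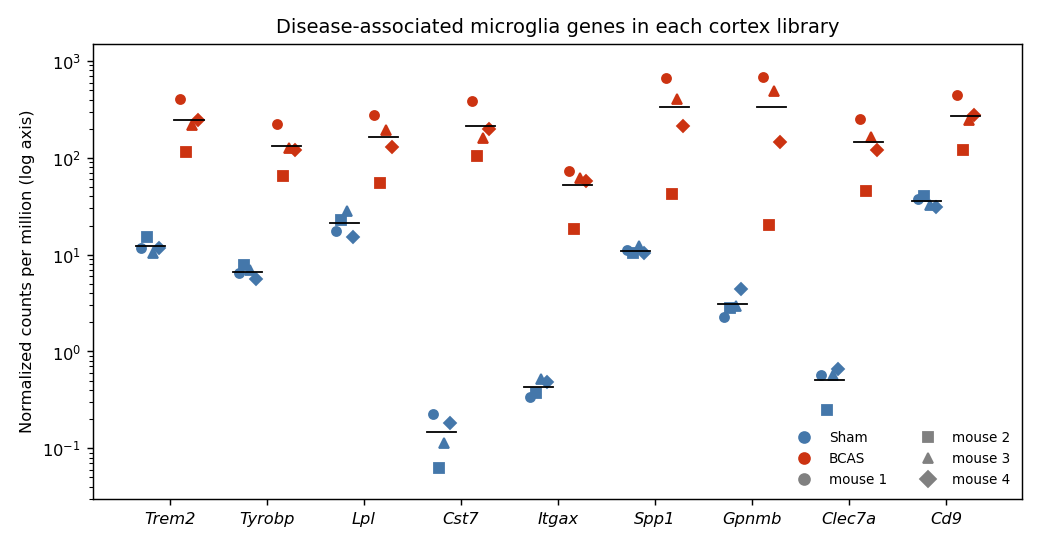
TMM-normalized CPM (log axis) of the 9 genes in every library, with sham mice in blue, BCAS mice in red, the symbol shape giving the mouse number within its group and the black line the group mean. In each gene all 4 BCAS mice lie above all 4 sham mice, and BCAS mouse 1 (circle) is the highest and mouse 2 (square) the lowest of the BCAS mice.

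The promoters of 5 of these genes are shown because they carry the core letters of the motif of PU.1, the transcription factor on which the macrophage lineage depends. RefSeq transcription starts gave 9 windows for 7 of the genes, each from 250 bases before the start to 50 after it, on GRCm38.p6. Tyrobp and Lpl had no entry in the set of windows used. Each line gives the 250 bases upstream of the start, 5′ to 3′ on the strand of the gene, with capitals for matches on either strand to the PU.1 forms GGAAGT and GAGGAA and to the AP-1 form TGANTCA. For Clec7a and Spp1, which each had a pair of windows, the one that starts at or next to the annotated gene start is shown.

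Trem2, chr17:48346151-48346400, + strand: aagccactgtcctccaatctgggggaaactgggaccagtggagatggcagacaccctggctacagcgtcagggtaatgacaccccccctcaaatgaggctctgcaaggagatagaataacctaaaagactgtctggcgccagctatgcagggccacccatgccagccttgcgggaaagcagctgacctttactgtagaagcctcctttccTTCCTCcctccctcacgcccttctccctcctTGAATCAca
Clec7a, chr6:129472780-129473029, - strand: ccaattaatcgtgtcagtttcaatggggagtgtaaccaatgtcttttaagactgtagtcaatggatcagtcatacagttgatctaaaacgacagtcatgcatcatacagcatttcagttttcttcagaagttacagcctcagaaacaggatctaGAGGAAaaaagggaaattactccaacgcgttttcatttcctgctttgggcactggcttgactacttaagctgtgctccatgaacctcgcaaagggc
Cst7, chr2:150570165-150570414, + strand: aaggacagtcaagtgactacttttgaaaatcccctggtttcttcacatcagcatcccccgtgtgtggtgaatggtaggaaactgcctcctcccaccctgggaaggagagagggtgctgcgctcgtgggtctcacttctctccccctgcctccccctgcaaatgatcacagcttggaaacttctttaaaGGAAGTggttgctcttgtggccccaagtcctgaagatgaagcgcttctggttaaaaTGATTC
Itgax, chr7:128129300-128129549, + strand: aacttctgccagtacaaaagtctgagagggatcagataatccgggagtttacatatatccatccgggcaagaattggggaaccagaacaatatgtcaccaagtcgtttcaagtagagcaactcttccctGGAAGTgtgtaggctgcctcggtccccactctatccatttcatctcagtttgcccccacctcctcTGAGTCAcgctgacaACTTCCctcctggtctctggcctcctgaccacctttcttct
Spp1, chr5:104434861-104435110, + strand: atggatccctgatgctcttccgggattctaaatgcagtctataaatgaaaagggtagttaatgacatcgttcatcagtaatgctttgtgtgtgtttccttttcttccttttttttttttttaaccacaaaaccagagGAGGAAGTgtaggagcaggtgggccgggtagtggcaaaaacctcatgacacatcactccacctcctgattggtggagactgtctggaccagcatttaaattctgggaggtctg

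The receptor gene Trem2 had GAGGAA on the opposite strand 40 bases before its start and an AP-1 match 9 bases before it. Itgax carried GGAAGT 121 bases upstream, its reverse complement 41 bases upstream and an AP-1 match at 56 bases. In Cst7, GGAAGT lay 62 bases upstream, and the AP-1 match at 6 bases runs into the start, so that its last letter is not printed. The GAGGAA and GGAAGT of Spp1 overlap in 1 run of capitals. Either PU.1 form was found in 6 of the 9 windows, against 43.4% of all 32851 RefSeq promoter windows. TGANTCA was found in 4 of the 9, in Trem2, Cst7, Itgax and, 8 bases past the start, Gpnmb, against 7.81% of all windows. The E-boxes CACGTG and CATGTG, the letters read by MITF and its relatives, were found in 0 and 1 of the 9 windows (the latter in Cd9), against 7.15% and 14.2% of all windows. A match describes the letters only, and the pair of Clec7a windows overlap.

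The receptor and adaptor genes came first. Trem2 (ENSMUSG00000023992.14, chromosome 17, 48346401 to 48354147, plus strand, GRCm38) encodes the lipid receptor itself. It was measured at 11.8, 15.1, 10.5 and 11.7 CPM in sham mice 1 to 4 and at 409, 114, 220.0 and 249 CPM in BCAS mice 1 to 4. The sham values lay close together, and even the lowest BCAS mouse stood 7.57 times above the highest sham mouse. The mean went from 12.3 ± 1.97 to 248 ± 122 CPM (SD, n = 4 each), a log2 fold change of 4.34 with a standard error of 0.37 and an edgeR adjusted p of 0.00146. Tyrobp (ENSMUSG00000030579.10, chromosome 7, 30413760 to 30417585, plus strand) encodes the adaptor through which TREM2 and other receptors signal. It stood at 6.42, 7.74, 6.92 and 5.67 CPM in sham mice 1 to 4, and BCAS mice 1 to 4 had 223, 64.4, 126 and 120.4 CPM. As in Trem2, mouse 1 was high and mouse 2 low, with the other two BCAS mice close to each other. The log2 fold change of 4.32 ± 0.36 (SE, edgeR adjusted p = 0.00146) was within the standard error of that of Trem2.

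Receptor and adaptor were also compared within each library. The ratio of Trem2 to Tyrobp counts per kilobase was 0.247, 0.263, 0.205 and 0.278 in sham mice 1 to 4, beside 0.247, 0.239, 0.235 and 0.279 in BCAS mice 1 to 4. The ranges of the groups overlap. The mean log2 ratio was -2.019 ± 0.192 in sham and -2.003 ± 0.111 in BCAS mice (SD, n = 4 each), and the difference of 0.02 had an exact two-sided permutation p of 0.857, with a 97.1% interval from -0.25 to 0.44. Without sham mouse 3 the difference was -0.07, and without BCAS mouse 4 it was -0.04, so its sign is not determined. Over the 8 libraries these were the closest pair of the 9, with a root mean square difference of 0.136 between their log2 changes from the sham mean, followed by Lpl and Cd9 at 0.332, a measure that mostly reflects their like fold changes. Among the 4 BCAS mice alone, each gene centered on its BCAS mean, Trem2 was closer to Cd9 (0.0342) than to Tyrobp (0.0963), and Lpl and Clec7a were at 0.0715.

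Clec7a (ENSMUSG00000079293.11, chromosome 6, 129461591 to 129472779, minus strand) encodes Dectin-1, a receptor for beta-glucans that signals through SYK by a tyrosine motif of its own. It was barely detected in sham cortex, with 10, 4, 10 and 11 counts in mice 1 to 4, and reached 5708, 880, 3037 and 2218 counts in the BCAS mice. Every BCAS mouse was far above the sham range, and mouse 2 was again the lowest. In CPM this was 0.513 ± 0.181 against 145 ± 85.8 (SD, n = 4 each), a log2 fold change of 8.12 ± 0.63 (SE) with an edgeR adjusted p of 0.00146. Because the sham counts were few, the ratio of the pooled counts was also computed, at 290 with a 95% exact interval of 208 to 416 that covers counting error only. By the size of the fold change Clec7a ranked 6th of the 17136 tested genes.

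Of the genes for lipid and protein breakdown, Lpl changed least and Cst7 most. Lpl (ENSMUSG00000015568.16, chromosome 8, 68880491 to 68907448, plus strand) encodes lipoprotein lipase, which releases fatty acids from lipoproteins. Its sham levels were 17.7, 22.9, 28.3 and 15.4 CPM and its BCAS levels 280.0, 54.9, 193 and 129 CPM. Lpl varied more between sham mice than any other of the genes measured above 10 CPM there, and BCAS mouse 2 was 1.94 times the highest sham mouse. The log2 fold change was 2.96 ± 0.45 (SE, edgeR adjusted p = 0.00347), from means of 21.1 ± 5.74 and 164 ± 95.7 CPM (SD, n = 4 each).

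Cst7 (ENSMUSG00000068129.5, chromosome 2, 150570415 to 150578944, plus strand) encodes cystatin F, an inhibitor of lysosomal cathepsins. The sham libraries held 4, 1, 2 and 3 counts of it, at or about the detection floor, and the BCAS libraries held 8720, 2034, 2962 and 3659. There was thus nearly no Cst7 RNA in sham cortex at this depth, and it was plentiful in all 4 BCAS mice. In CPM the means were 0.146 ± 0.0726 and 212 ± 121 (SD, n = 4 each). The log2 fold change was 10.42 ± 0.61 (SE) with an edgeR adjusted p of 0.000479, the second in rank of all tested genes. The ratio of pooled counts was 1488 with a 95% exact interval of 809 to 3103, which covers counting error and not the spread between mice.

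The adhesion and matrix genes differed in how even they were among the BCAS mice. Itgax (ENSMUSG00000030789.9, chromosome 7, 128129547 to 128150657, plus strand) encodes integrin alpha X (CD11c), which pairs with the beta 2 chain and is absent from most resting microglia. Sham mice 1 to 4 yielded 6, 6, 9 and 8 counts, and BCAS mice 1 to 4 yielded 1646, 354, 1145 and 1060. BCAS mice 1, 3 and 4 were close together and mouse 2 stood below them. Itgax went from 0.428 ± 0.0836 to 52.5 ± 23.7 CPM (SD, n = 4 each), a log2 fold change of 6.92 ± 0.51 (SE, edgeR adjusted p = 0.00126). The ratio of pooled counts was 124 with a 95% exact interval of 86.3 to 186, again for counting error only.

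Spp1 (ENSMUSG00000029304.14, chromosome 5, 104435118 to 104441050, plus strand) encodes osteopontin, a secreted matrix protein and integrin ligand. The sham mice were alike, at 11.1, 10.5, 12.2 and 10.4 CPM, and the BCAS mice uneven, at 668, 42.4, 405 and 211 CPM. The groups did not overlap, but the highest BCAS mouse held 15.7 times the level of the lowest. The means were 11.0 ± 0.828 and 332 ± 269 CPM (SD, n = 4 each), and the log2 fold change was 4.91 ± 0.73 (SE, edgeR adjusted p = 0.00310). Of the exon bases of Spp1, 18.75% are shared with the gene model Gm42793 on the same strand, and reads there cannot be assigned to either.

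Gpnmb (ENSMUSG00000029816.10, chromosome 6, 49036546 to 49070929, plus strand) encodes a glycoprotein of lysosomal and melanosomal membranes. Its sham levels were 2.27, 2.81, 2.92 and 4.47 CPM, and its BCAS levels 683, 20.4, 495 and 144 CPM. This was the widest spread of the 9, with 33.4 times between BCAS mice 1 and 2. Its log2 fold change of 6.75 therefore had the largest standard error of the 9, 1.03, with an edgeR adjusted p of 0.00347, from means of 3.12 ± 0.943 and 336 ± 307 CPM (SD, n = 4 each). Cd9 (ENSMUSG00000030342.8, chromosome 6, 125460266 to 125494791, minus strand) encodes a tetraspanin that organizes adhesion receptors and is made by glia other than microglia too. Sham mice held 37.5, 40.2, 32.8 and 31.3 CPM of it, and BCAS mice 443, 121, 249 and 274 CPM, again with mouse 2 the lowest. Its log2 fold change of 2.94 ± 0.34 (SE, edgeR adjusted p = 0.00184) was the smallest of the 9 and yet left the groups well apart. For Cd9, 10.67% of exon bases are shared with Gm26728 on the opposite strand, and the counting did not use strand.

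Per unit of gene length the order of the 9 genes changed between the groups. In sham mice Cd9 came first at 17.3 CPM per kilobase of exon, followed by Tyrobp at 10.03, Spp1 at 6.69, Trem2 at 2.48, Lpl at 2.01, Gpnmb at 0.478, Clec7a at 0.195, Cst7 at 0.148 and Itgax at 0.0892. The ranges of Trem2 and Lpl, of Clec7a and Cst7 and of Cst7 and Itgax overlapped, and the other neighbors in this order were separated in all libraries. In BCAS mice the order began with Cst7 at 215, Spp1 at 201 and Tyrobp at 200.2 CPM per kilobase, then Cd9 at 133, Clec7a at 55.1, Gpnmb at 51.6, Trem2 at 50.1, Lpl at 15.7 and Itgax at 10.9. There the ranges of all neighbors overlapped. Within single libraries, Tyrobp was above Cd9, Cd9 above Clec7a, Trem2 above Lpl and Lpl above Itgax in all 4 BCAS mice, whereas Cst7 and Spp1, Spp1 and Tyrobp, Clec7a and Gpnmb, and Gpnmb and Trem2 exchanged places between mice. Cst7 thus went from 8th to 1st place, with a BCAS range of 106 to 389, while Itgax stayed in the last place in both groups.

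**Figure D2:**
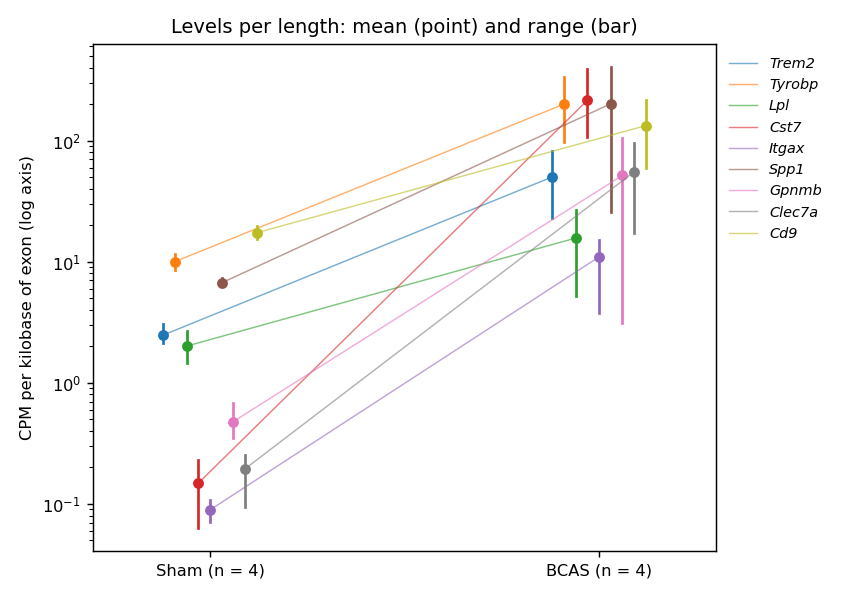
Level of each gene in CPM per kilobase of exon (log axis) in the sham and BCAS groups, with points for the mean of 4 mice, bars for the lowest and highest mouse and lines joining the groups. Cst7 rises from 0.148 to 215 and crosses most of the other genes, and the bars of Spp1 and Gpnmb in BCAS mice are the longest.

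Mouse 1 was the highest and mouse 2 the lowest BCAS mouse for all 9 genes, which puts them with the large majority of the genes that rose. The size of the gap was not alike, however. The highest BCAS level was 3.46 to 3.97 times the lowest for Tyrobp, Trem2, Cst7, Cd9 and Itgax, 5.10 times for Lpl and 5.54 times for Clec7a, and 15.7 and 33.4 times for Spp1 and Gpnmb, beside a median of 3.21 over the 1877 genes that rose. Mouse 3 was above mouse 4 in 6 genes, by 3.43 times for Gpnmb and 1.92 times for Spp1, and below it in Trem2, Cst7 and Cd9. Summed markers of other cells differed between the same mice: those of blood monocytes and neutrophils were 93.1, 4.38, 60.3 and 15.1 CPM in BCAS mice 1 to 4, and those of meningeal fibroblasts were 1263, 314, 1124 and 617 CPM. Mouse 3 was second to mouse 1 in both sums, followed by mouse 4 and mouse 2, which was also the order of Gpnmb, Spp1, Tyrobp, Lpl, Itgax and Clec7a and of the pan-myeloid, border-associated macrophage, lymphocyte and oligodendrocyte sums. Mouse 4 was above mouse 3 in the microglial identity, astrocyte and endothelial sums. The part of these cells in the levels of the 9 genes was not tested.

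**Figure D3:**
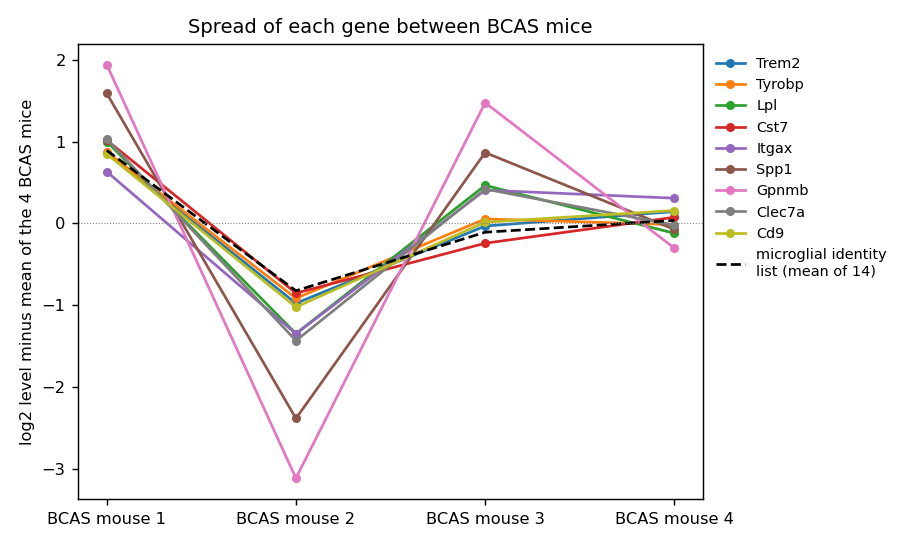
Log2 level of each gene in each BCAS mouse after subtraction of its mean over the 4 BCAS mice, with the mean of 14 microglial identity genes as a dashed line. Trem2, Tyrobp, Cst7 and Cd9 stay near the dashed line, while Gpnmb and Spp1 swing further, down in mouse 2 and up in mice 1 and 3.

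The 14 microglial identity genes, a list that holds markers of microglia at rest, all rose in the same libraries, with a median log2 fold change of 2.38 and a mean log2 level above the sham mean by 3.28, 1.57, 2.28 and 2.43 in BCAS mice 1 to 4. The largest log2 fold change of the list was that of the scavenger-receptor-like Fcrls, 3.83, and the smallest that of the fructose transporter Slc2a5, 1.37. P2ry12 and Tmem119, which are classically lowered in disease-associated microglia and were named here after their values were seen, rose with log2 fold changes of 1.80 and 2.48 (edgeR adjusted p = 0.00305 and 0.00302). The levels of the 9 genes were also expressed relative to the mean log2 level of the identity genes of the same library, a reference that includes such genes.

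On that relative log2 scale 8 of the 9 genes were higher in BCAS mice, with no overlap between the groups and an exact two-sided permutation p of 0.0286 each, the smallest that 4 against 4 libraries can give, over 9 comparisons without adjustment. The share of all tested genes that would do so was not computed on this scale. The difference was largest for Cst7, at 7.19, and was 5.29 for Clec7a, 4.07 for Itgax, 3.44 for Gpnmb, 1.93 for Spp1, 1.81 for Trem2, 1.78 for Tyrobp and 0.41 for Cd9. Cst7, Clec7a and Itgax met the count filter through the BCAS libraries alone, so that their part in this count is partly set by the filter. Lpl differed by 0.37 and overlapped between the groups (exact permutation p = 0.286), with relative levels of -0.76, -0.48, 0.07 and -0.996 for sham mice 1 to 4 and of -0.06, -0.69, 0.41 and -0.32 for BCAS mice 1 to 4. Among the BCAS mice the relative level of Cst7 was narrow, at 0.39, 0.24, 0.13 and 0.31, and so was that of Trem2, at 0.49, 0.36, 0.59 and 0.63. Gpnmb, at 1.23, -2.11, 1.76 and -0.16, and Spp1, at 1.20, -1.06, 1.47 and 0.39, were spread widely on the same scale. With any 1 of the sham libraries left out, Spp1, Gpnmb and Cd9 no longer passed (exact permutation p = 0.0571 each, from 3 against 4 libraries) and 5 of the 9 did, while their differences stayed at 1.87 to 2.03, 3.31 to 3.61 and 0.34 to 0.44 without overlap, and with any 1 BCAS library left out 8 passed.

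The choice of the reference genes mattered for the smaller differences. Relative to 11 pan-myeloid genes, which microglia share with other macrophages and blood myeloid cells and which all rose with a median log2 fold change of 4.14, only Cst7 (5.91), Clec7a (4.01), Itgax (2.78), Trem2 (0.52) and Tyrobp (0.50) were higher in BCAS mice (exact permutation p = 0.0286 each). The limit of the filter holds here too for Cst7, Clec7a and Itgax, and the share of all tested genes was not computed. Gpnmb differed by 2.15 (exact permutation p = 0.0571) and Spp1 by 0.64 (exact permutation p = 0.2) on this log2 scale. Lpl and Cd9 turned the other way and fell by 0.91 and 0.88, with all 4 BCAS mice below all 4 sham mice (exact permutation p = 0.0286 each).

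**Figure D4:**
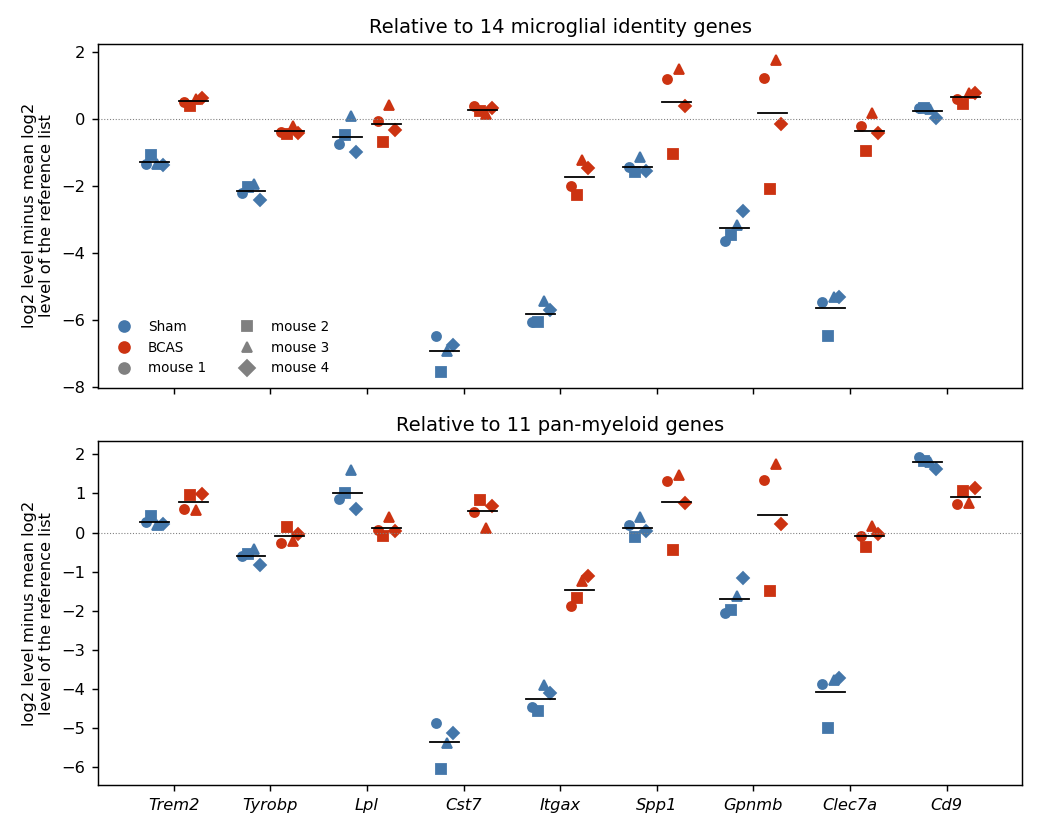
Log2 level of each gene minus the mean log2 level of the 14 microglial identity genes (upper panel) or the 11 pan-myeloid genes (lower panel) of the same library, with sham mice in blue, BCAS mice in red and black lines for group means. Cst7, Clec7a and Itgax are far apart between the groups in both panels, whereas Lpl overlaps in the upper panel and Lpl and Cd9 are lower in BCAS mice in the lower one.

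Other genes known from the disease-associated state mostly rose too. Of a list of 23 such genes, all tested, 20 rose and 0 fell, with a median log2 fold change of 2.55. Apoe, the main apolipoprotein of the brain and a TREM2 ligand, had the highest mean CPM of the list over all 8 libraries. It was at 1404 ± 49.4 CPM in sham mice, where Fth1 was higher (1655 ± 233), and at 8575 ± 4697 CPM in BCAS mice (SD, n = 4 each). Its log2 fold change was 2.61 ± 0.42 (SE, edgeR adjusted p = 0.00410). The lectin Lgals3 had the largest log2 fold change of the list, 7.28 ± 1.14 (SE, edgeR adjusted p = 0.00375), and was tested through its BCAS counts, with 0.384 ± 0.240 CPM in sham mice (SD, n = 4). The ferritin heavy chain Fth1 had the smallest, 0.65 ± 0.22 (SE), and did not pass (edgeR adjusted p = 0.0527). Fabp5 (0.85) and Timp2 (0.90) missed only the fold threshold (edgeR adjusted p = 0.0264 and 0.00793).

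Of 18 genes that act in or on TREM2 and Dectin-1 signaling, from kinases and adaptors to proteases that shed TREM2, 14 rose and 0 fell, with a median log2 fold change of 3.01. Among the 14, Hcst and Ms4a4a met the count filter through the BCAS libraries, which partly sets this count. In sham mice they were at 0.406 ± 0.240 and 0.339 ± 0.223 CPM (SD, n = 4 each). The phosphatase Ptpn6 (SHP-1), which dampens signaling through tyrosine motifs, had the largest log2 fold change of this list at 4.06 ± 0.50 (SE, edgeR adjusted p = 0.00201). Syk, the kinase that both receptors share, rose from 5.13 ± 0.799 to 40.4 ± 26.8 CPM (SD, n = 4 each) and was named after its value was seen. Adam10, a protease that sheds TREM2 from the cell surface, had the highest mean CPM and the smallest log2 fold change, 0.48 ± 0.14 (SE), which did not reach 1. The same was true of Vav3, Bcl10 and Malt1.

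Among the partners and receptors of the 9 gene products, 13 of the 16 tested genes of 18 rose and 0 fell, with a median log2 fold change of 2.42. Itgb2, the beta 2 chain that pairs with the Itgax product, rose from 6.91 ± 1.17 to 149 ± 93.0 CPM (SD, n = 4 each), a log2 fold change of 4.43 ± 0.45 (SE, edgeR adjusted p = 0.00146). Lgmn, the lysosomal protease legumain and a target of cystatins, was measured at 98.0 ± 8.14 and 472 ± 250 CPM and had a log2 fold change of 2.27 ± 0.34 (SE, edgeR adjusted p = 0.00330). Itgav, a chain of the osteopontin receptors, was at 145 ± 10.1 and 142 ± 19.4 CPM (edgeR adjusted p = 0.841). Itga4 and Lmf1, the latter a maturation factor of lipoprotein lipase, did not pass either. Of the MiT/TFE transcription factors, which act on lysosomal genes and on Gpnmb in other cell types, 1 of the 3 tested passed. This was Tfeb, with a log2 fold change of 1.06 ± 0.27 (SE, edgeR adjusted p = 0.0201), while Mitf at 0.98 and Tfe3 at 0.51 did not reach the fold threshold. The count for this family lay between 0 and 2 when single mice were left out, with 0 without sham mouse 2, 3 or 4 or BCAS mouse 1 or 3 and 2 without BCAS mouse 2 or 4.

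Markers of other cells were read in the same way, and their part in the levels of the 9 genes was not tested. The 11 pan-myeloid genes summed to between 160.2 and 196 CPM in sham mice and between 1169 and 5316 CPM in BCAS mice. C1qa, a chain of complement C1q, was the highest in fold change (4.31) and in mean level over all 8 libraries, and Aif1 (Iba1) the lowest in fold change (3.05). In sham mice Laptm5 (39.8 CPM) and C1qb (34.0 CPM) were above C1qa (33.5 CPM). Of 8 genes of border-associated macrophages, which live in the meninges and around vessels, 6 rose, led by Ms4a7 (4.65), with Stab1 the highest in mean CPM (2.36), while Cd163 (0.84, edgeR adjusted p = 0.0587) and Pf4 did not. Ms4a7 and Cbr2, at 0.532 ± 0.231 and 0.576 ± 0.153 CPM in sham mice (SD, n = 4 each), met the count filter through the BCAS libraries. The sum of the 8 was 41.4 to 47.5 CPM in sham and 77.6 to 363 CPM in BCAS mice. Of 11 genes of blood monocytes and neutrophils only Ccr2 and Ly6c2 had enough counts to be tested, through the BCAS libraries, so that their rise is partly set by the filter. They went from 0.732 ± 0.447 to 18.3 ± 17.6 CPM and from 0.0889 ± 0.0745 to 8.51 ± 9.13 CPM (SD, n = 4 each). The list summed to 0.845 to 1.93 CPM in sham and 4.38 to 93.1 CPM in BCAS mice. The neutrophil marker Ly6g had 0 counts in all 8 libraries and Camp between 0 and 3.

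Of 12 lymphocyte genes 3 were tested and 2 passed, among them Cd8a, which also had enough counts only through BCAS libraries and went from 0.0912 ± 0.0808 to 5.18 ± 4.94 CPM (SD, n = 4 each), while Trbc2 had a log2 fold change of -0.67 (edgeR adjusted p = 0.134). Their sum was 7.72 to 14.9 CPM in sham mice and 82.9, 10.6, 53.7 and 19.3 CPM in BCAS mice 1 to 4. When a single mouse was left out, between 2 and 7 monocyte and neutrophil genes and between 1 and 7 lymphocyte genes passed, the highest numbers without BCAS mouse 2, and without BCAS mice 1 and 2 it was 7 of each. Without sham mouse 1 or 3 it was 4 and 6 monocyte and neutrophil genes, without sham mice 1 to 4 it was 5, 6, 4 and 4 lymphocyte genes, and without BCAS mouse 3 it was 1 lymphocyte gene. The count filter was applied anew to each reduced set of mice. Genes untested in the full fit could thus be tested there, and these numbers do not share a denominator.

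Meningeal fibroblast genes, of which 6 of 8 rose with a median log2 fold change of 2.75, summed to between 173 and 216 CPM in sham mice. In that list Col3a1 (4.40) had the largest log2 fold change, Col1a2 (2.77) the highest mean level over all 8 libraries and Pdgfra (0.51) the smallest change. In sham mice Pdgfra was above Col1a2 (73.3 ± 9.39 against 25.6 ± 5.18 CPM, SD, n = 4 each). Of 8 astrocyte genes 2 rose and 6 were higher by the adjusted p alone, with a median of 0.56, among them Gfap, the intermediate filament of reactive astrocytes, at 3.90 ± 0.36 (SE, edgeR adjusted p = 0.00146), while the glutamate transporter Slc1a2 was at 0.02. None of 10 oligodendrocyte genes passed by edgeR or DESeq2, with a median of 0.20 and values from -0.30 for Opalin to 0.53 for Cldn11, with Mbp at 0.43, and 0 of the 10 had an adjusted p under 0.05. Of 8 endothelial genes, with a median of 0.39, 0 passed by either tool and 2 had an adjusted p under 0.05 without reaching the fold threshold, between Slco1a4 (0.16) and Cdh5 (0.87), with Flt1 at 0.17, and 1 passed without BCAS mouse 2. Among 10 neuronal genes, with a median of -0.81, Snap25 fell by 1.07 on the log2 scale (edgeR adjusted p = 0.0172) and 9 did not pass, with Gad2 at 0.02, although 8 of the 10 were lower with an adjusted p under 0.05. Without BCAS mouse 2, 5 neuronal genes passed, without sham mouse 3 it was 2, and without sham mouse 1 or 4, BCAS mouse 1 or both BCAS mice 1 and 2 it was 0.

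**Figure D5:**
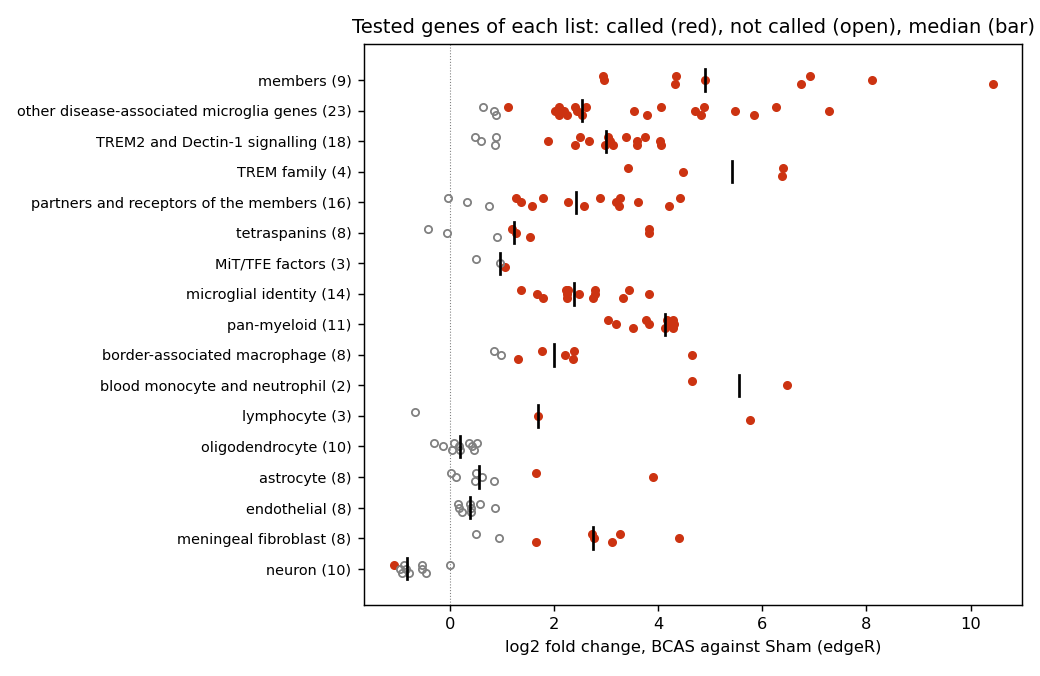
Log2 fold change, BCAS against sham, of the tested genes of each list from edgeR, with filled red points for genes that passed the rule, open points for those that did not, a bar for the median and the number of tested genes in parentheses. The 9 genes have a median of 4.91, the microglial identity genes 2.38 and the pan-myeloid genes 4.14, and the oligodendrocyte and endothelial genes 0.20 and 0.39.

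Genes with the profile most like each of the 9 were taken from 15865 other tested genes with a mean of at least 1 CPM, by the root mean square difference of the log2 changes from the sham mean over the 8 libraries. For both Trem2 and Tyrobp the nearest gene was C1qa (0.153 and 0.152), followed by Itgb2 (0.172) for Trem2 and C1qb (0.158) for Tyrobp. Cd9 had the closest neighbors of the 9, the inhibitory receptor gene Lair1 at 0.0978 and the integrin gene Itgb5 at 0.121. Lpl was nearest to Arhgdib (0.189) and Tmem156 (0.196), and Spp1 to the Fc receptor gene Fcgr4 (0.301) and A2m (0.317). Gpnmb was nearest to the lysozyme gene Lyz2 (0.479) and to Siglec1 (0.734), and the BCAS libraries 1 to 4 held 34133, 2263, 21098 and 7472 counts of Lyz2, in the same order of mice as Gpnmb. Itgax was nearest to Ly9 (0.423) and the chemokine gene Ccl3 (0.518). For Clec7a and Cst7 the nearest were Mmp3 (0.616 and 1.91) and Ly9 (0.914 and 2.16), so that no gene came close to Cst7. Mmp3, a secreted metalloprotease of connective tissue, had 0 counts in all sham libraries and 748, 76, 518 and 203 in BCAS mice 1 to 4, which made it at least 107-fold higher against a floor of 3 counts per library. Genes that differ strongly between the groups are close to each other on this measure by that difference alone, and all points share the same 8 libraries.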

How the data were processed

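RNA from the right cortex of 8 mice (4 sham, 4 BCAS) was sequenced as paired reads, with 1 mouse per library. Per the methods and labels, the authors trimmed the reads with Trim Galore, aligned them to mm10 with HISAT2, sorted them with SAMtools 1.9 and counted them with featureCounts. The authors deposited unnormalized read pair counts per gene. The header of each table names featureCounts 2.0.1, GENCODE vM20, exons and no strand option, whereas the methods name version 1.6.3 and RefSeq genes. Symbols were matched by gene identifier for 54723 of 54752 genes. Because read pairs overlapping several genes were not assigned, genes with shared exons can be undercounted.

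Counts were tested in R 4.3.3 with edgeR 4.0.16 (TMM; filterByExpr with minimum count 10 and minimum total 15; quasi-likelihood F-test; Benjamini-Hochberg adjustment), without covariates. Calls needed both an adjusted p under 0.05 and a log2 fold change beyond 1 in size. Standard errors of edgeR log2 fold changes were back-calculated, as the size of the change divided by the square root of the F statistic. Log2 levels used a prior count of 2. Relative levels and the Trem2 to Tyrobp ratio were compared by exact permutation over 70 arrangements. The fit was tested on simulated counts with known changes. Alternatives were other normalizations, filters and thresholds, DESeq2 1.42.0, limma 3.58.1 (voom, or log2(CPM + 1)), the replicate number as a block, and leaving out each mouse.

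The 9 genes and the 16 lists were chosen with earlier results of these data known. Genes named are the 9, the highest and lowest fold change and highest mean level over all 8 libraries of each list, and the nearest profiles. Others are named because a count of 5 or fewer left them over, or after their values were seen. No protein sequence was used here. A gene that this rule names, and the relative levels computed with a smaller reference that holds it, are not reported here.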

Additional observations from a re-analysis of the deposited data

Results flagged for a closer look

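Of 38 sets of 4 libraries checked for a library that stands apart from the others by Dixon's test, 3 had one, all among the sham mice and all in a level relative to the microglial identity genes on the log2 scale. Chance gives about 1 such set in 20. For Trem2, the receptor gene, sham mouse 2 was at -1.081 and the other 3 sham mice were between -1.388 and -1.342. For Clec7a, sham mouse 2 was at -6.487 and the others were between -5.473 and -5.307, from 4 counts in that mouse against 10, 10 and 11. For Cd9, the tetraspanin gene, sham mouse 4 was at 0.02098 and the others were between 0.2862 and 0.3248. In each of these genes the 4 BCAS mice were above the highest sham mouse with the library included. Neither mouse stood apart in the CPM of these genes.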

How the results depend on the processing

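All 9 genes were called under 19 of 20 alternatives, and 6 were called when at least 10 counts were required in every library, which left Cst7, Itgax and Clec7a untested. Every one of 159 refitted log2 fold changes kept its direction and its call, with a largest adjusted p of 0.0319 (Gpnmb, limma-voom). Across all genes 2097 were called, 744 when tested against a log2 fold change of 1, 5490 with the adjusted p alone and 1644 to 2967 with 1 mouse left out. Over the lists 99 genes were called, and 93 to 122 with 1 mouse left out, with the count filter applied anew each time.

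Of the 9 genes, 8 were higher relative to the microglial identity genes, 5 relative to the pan-myeloid genes and 5 to 8 with 1 mouse left out. No share over all tested genes was computed on these scales. Lpl (-0.91) and Cd9 (-0.88) turned negative relative to the pan-myeloid genes. The difference in the Trem2 to Tyrobp ratio ranged from -0.074 to 0.0729 with 1 mouse left out, with -0.074 without sham mouse 3 and -0.0383 without BCAS mouse 4.

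The labels give no pairing, and mice with the same number did not deviate together (correlations -0.045, -0.103, -0.008 and 0.001). The main fit therefore did not pair them, and whether mice with the same number shared a batch is not known. With the replicate number as a block, 1809 genes, 96 list genes and all 9 genes described were called.

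With 4 mice a group the smallest permutation p is 0.0286, and Cst7, Itgax and Clec7a rest on 1 to 11 counts in each sham library, so their fold changes are known less precisely than their presence after BCAS.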

Other observations

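Relatives of the 9 gene products were measured in the same libraries. Of 8 genes of the TREM and CD300 receptor families other than Trem2, 4 had enough counts to be tested and passed, which the filter partly sets, since a gene as low in sham mice as Cd300lb met it through the BCAS libraries. Cd300a, an inhibitory lipid receptor gene, had the highest mean CPM of these, at 1.72 ± 0.311 CPM in sham and 18.4 ± 15.3 CPM in BCAS mice (SD, n = 4 each), with a log2 fold change of 3.42 ± 0.71 (SE, edgeR adjusted p = 0.00994). Cd300lb, an activating member that signals through TYROBP, went from 0.0596 ± 0.0690 to 5.57 ± 4.86 CPM (edgeR adjusted p = 0.00576). Trem1, Trem3, Treml1 and Treml4 were not tested, with at most 4 counts in any sham library and at most 24 in any BCAS library.

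Of 8 tetraspanin genes other than Cd9, 5 rose, 3 did not pass and 0 fell, with a median log2 fold change of 1.23. Cd53, a tetraspanin of leukocytes, had the largest log2 fold change, 3.84 ± 0.40 (SE, edgeR adjusted p = 0.00146), from 6.77 ± 0.654 to 96.7 ± 55.5 CPM (SD, n = 4 each). Tspan7, which neurons make, had the highest mean CPM and the lowest log2 fold change, -0.41 ± 0.13 (SE), which did not reach the threshold. Cd81 (0.90, edgeR adjusted p = 0.00462) missed only the fold threshold, and Tspan3 (-0.06, edgeR adjusted p = 0.582) did not pass either.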
